A study of Mus musculus with 20 samples.

Results

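The genes of 66 chromatin and DNA methylation enzymes were followed in the livers of adult male mice whose mothers had been kept at 1 of 4 temperatures. The members were taken by gene symbol: DNA methyltransferases (Dnmt), TET dioxygenases, lysine methyltransferases (Ezh, Ehmt, Suv39h, Kmt and Setd), lysine demethylases (Kdm), histone deacetylases (Hdac), sirtuins and lysine acetyltransferases (Kat). Of 19505 gene symbols on the array, 68 array rows matched these patterns, and Kdm5c and Kdm5d, which lie on the sex chromosomes, were left out. Other members on the X chromosome, Kdm6a, Hdac6 and Hdac8, were kept. No member had more than 1 row, a transcript cluster being the set of probes that stands for a gene. Kmt2a, Suv39h1, Hdac5 and Sirt7 had no row under these symbols, so statements on a class leave them out.

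Liver RNA of 20 mice was measured, 1 Affymetrix array per mouse, with 5 mice in each group. All were wild-type C57BL/6NCr males of 4 to 5 months on chow diet, born to dams housed at 10, 18, 23 or 30 °C. Dams were acclimated for 3 weeks (30 °C) or 2 weeks (18 and 10 °C) before breeding, and the sires of these 3 groups were exposed for 3 days. No acclimation or sire exposure is given for the 23 °C group. Every litter was moved to 23 °C at delivery, so the groups differed in temperature before birth and shared it afterwards. The differences in acclimation and sire exposure cannot be told apart from that of temperature. The groups are called below by the maternal temperature, and animals by their number in the labels. The series title ties maternal thermogenesis to glucose tolerance of male offspring. The labels give no litter or dam for any animal, so offspring of 1 dam may be among the 5 of a group. The p-values set a difference against the spread between arrays and treat the arrays as independent, which those of littermates may not be.

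These enzymes write and erase chemical marks on DNA and on the histone proteins around which it is wound. DNA methyltransferases add methyl groups to the cytosine of CG pairs, and TET enzymes oxidise them, a step towards their removal. Lysine methyltransferases and acetyltransferases add methyl and acetyl groups to histone lysines, demethylases and deacetylases take them off, and sirtuins are deacylases that need NAD. In liver, such enzymes serve as cofactors at genes of glucose and lipid metabolism, Hdac3 and Sirt1 being among the best studied, and they have been proposed as carriers of effects of the environment before birth.

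None of the 66 genes differed between maternal temperatures at an adjusted p under 0.05. This held for the 6 pairwise comparisons, the moderated F-test over the 4 groups and the slope on temperature, each fitted with limma and adjusted by the Benjamini-Hochberg method over 22206 transcript clusters. The smallest adjusted p among the members was 0.143, for Kmt2d between 18 and 30 °C. The array as a whole gave little: 2 clusters (0.00901%) passed between 10 and 23 °C and 0 in each other comparison, the F-test and the slope, limma's unadjusted p being under 0.05 for 1074 to 2584 clusters in each. The values below are therefore descriptions of which genes stood apart and by how much, and none is a call.

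The comparisons still bound the size of any difference in signal. For 6 members at background and 5 more not above the negative controls, set out below, such a bound concerns background and not the transcript. The 95% confidence interval of a difference between 2 groups of 5 had a median half-width of 0.37 on the log2 scale. The interval lay within 1 log2 unit of zero, a doubling or halving of the signal, for 65 of 66 members between 10 and 23 °C, 65 between 18 and 23 °C, 66 between 30 and 23 °C, 66 between 10 and 30 °C, 64 between 18 and 30 °C, and 65 between 10 and 18 °C. Many of the differences named here, of 0.3 to 0.5, were of about that size.

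The promoters of the members that stood most apart over the 4 groups are shown because CG pairs are the substrate of the DNA methyltransferases and TET enzymes. The windows cover the 250 bases before the gene start, from RefSeq on GRCm38.p6, with each CG in capitals. They belong to the 4 members of smallest F-test p among those with a single listed start: Kmt2d at chr15:98871206-98871455, Sirt1 at chr10:63339036-63339285, Hdac4 at chr1:92180342-92180591 and Hdac8 at chrX:102505159-102505408, all on the minus strand and written 5′ to 3′.
Kmt2d promoter: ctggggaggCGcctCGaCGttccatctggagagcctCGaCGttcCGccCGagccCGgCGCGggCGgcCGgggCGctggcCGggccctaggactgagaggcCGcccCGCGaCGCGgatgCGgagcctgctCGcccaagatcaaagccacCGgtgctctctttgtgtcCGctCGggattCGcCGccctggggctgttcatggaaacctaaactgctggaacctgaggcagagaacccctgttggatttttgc
Sirt1 promoter: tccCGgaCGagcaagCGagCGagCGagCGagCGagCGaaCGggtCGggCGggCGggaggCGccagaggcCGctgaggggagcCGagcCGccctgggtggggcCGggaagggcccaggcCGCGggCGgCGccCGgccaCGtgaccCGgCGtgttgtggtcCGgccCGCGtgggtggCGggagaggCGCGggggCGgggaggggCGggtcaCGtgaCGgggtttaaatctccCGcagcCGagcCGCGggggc
Hdac4 promoter: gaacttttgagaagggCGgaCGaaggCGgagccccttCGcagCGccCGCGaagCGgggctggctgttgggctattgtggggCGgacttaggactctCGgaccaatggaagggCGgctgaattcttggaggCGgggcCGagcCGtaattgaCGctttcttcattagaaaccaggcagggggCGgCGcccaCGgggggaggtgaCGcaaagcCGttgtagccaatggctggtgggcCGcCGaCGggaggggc
Hdac8 promoter: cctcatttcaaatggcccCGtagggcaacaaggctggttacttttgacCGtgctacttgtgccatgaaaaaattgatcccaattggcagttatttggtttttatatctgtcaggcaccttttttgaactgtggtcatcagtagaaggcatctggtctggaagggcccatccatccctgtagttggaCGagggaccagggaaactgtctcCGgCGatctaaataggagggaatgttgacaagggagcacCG

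The Kmt2d, Sirt1 and Hdac4 windows held 26, 39 and 23 CG pairs, and the Hdac8 window 6. Windows were found for 54 members, with 81 starts, and not used for the other 12. A median of 17 CG pairs stood in the members' windows, against 10 over 19143 windows of 15691 named genes on the array. The members' windows were thus richer in CG pairs than the array's at large. At least 10 CG pairs were present in 76.5% of the members' windows and in 52.2% of all. The letters TATAAA, read on either strand and so also as TTTATA, were found in 2.47% of the members' windows, the Hdac8 window among them, and in 11.4% of all. Methylation itself was not measured.

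Signal above background was present for most of the enzymes. Of the 66, 55 had a mean over the 20 arrays above both background measures used: the 95th percentile of 1091 olfactory receptor clusters, at 3.90, and the array means of 5222 negative control rows, from 4.40 to 4.75. The 6 members below 3.90 were Kdm4d at 2.66, Dnmt3l at 2.78, Kdm2b at 2.80, Tet1 at 3.02, Kdm8 at 3.56 and Dnmt3b at 3.81. A further 5, Setd4, Hdac7, Setd7, Setd1a and Sirt6, lay between 3.90 and the upper negative control mean. By comparison, 43.9% of all clusters and 9.09% of the members were below 3.90. Each cluster has its own probes, so the signals of different genes were not set against each other.

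**Figure D1:**
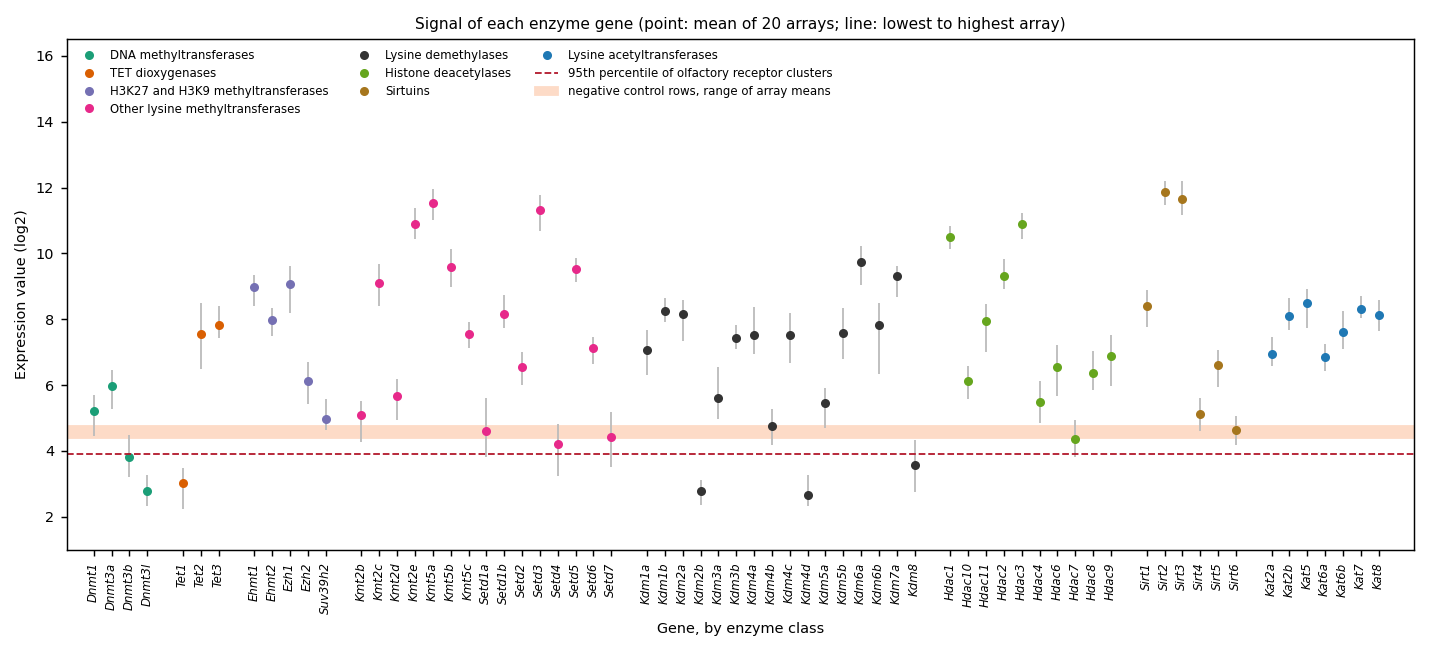
Signal of each of the 66 enzyme genes (log2 expression value), grouped by enzyme class and ordered by name; points are means of 20 arrays and lines run from the lowest to the highest array. The dashed line is the olfactory receptor bound at 3.90 and the band covers the negative control means of 4.40 to 4.75; 6 members lie below the line and 55 above both.

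The labelled tissue was borne out by its markers. The mean of 10 hepatocyte genes, albumin and Cps1 among them, lay between 18.66 and 18.83 in every array, and none was below 3.90. Array medians ran from 4.46 to 4.56, and the arrays correlated with each other at 0.987 to 0.993. The 23 background control rows had means of 3.68 to 3.72 in the 10 °C arrays, 3.64 to 3.74 at 18 °C, 3.63 to 3.68 at 23 °C and 3.61 to 3.75 at 30 °C. They were thus brighter in all 10 °C arrays, and in all 18 °C arrays other than animal 5, than in any 23 °C array. Every comparison was therefore also fitted after adding each array's background level to the model, and values adjusted in this way are given below for some. Between 10 and 23 °C the background levels did not overlap, so this adjustment cannot separate background from maternal temperature there.

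Other cell types of the liver were read from lists of marker genes. The mean of 9 measured macrophage genes of 10 ran from 7.82 to 8.38 at 10 °C, 7.66 to 8.46 at 18 °C, 7.14 to 8.02 at 23 °C and 7.36 to 8.21 at 30 °C, with none below 3.90. The 10 endothelial genes had means of 9.66 to 9.96, 9.56 to 10.07, 9.42 to 9.79 and 9.43 to 9.83 in the same order, also with none below 3.90. Proliferation genes, 14 measured of 15, stood at 4.46 to 4.66, 4.70 to 5.14, 4.38 to 4.90 and 4.33 to 4.94, with Cdk1, Birc5, Aurkb, Plk1, Bub1 and Mcm5 below 3.90. The group means of the macrophage list were 8.01 at 10 and 18 °C and 7.66 at 23 and 30 °C, and the proliferation list had its highest mean, 4.85, at 18 °C. None of these genes passed in limma either, and the part of cell composition in the enzyme values was not tested. In whole liver, fewer cells of a type and less RNA per cell cannot be told apart.

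Kmt2d, a methyltransferase that places mono- and dimethyl marks on histone H3 lysine 4 at enhancers, stood most apart. In the 18 °C offspring it read 4.95, 5.35, 5.11, 5.55 and 5.40. The 23 °C offspring read 6.09, 5.63, 5.98, 5.79 and 5.80, and those of 30 °C dams 5.83, 6.10, 5.89, 6.17 and 5.93. All 5 arrays of the 18 °C group were below every 23 °C and every 30 °C array. The 10 °C offspring, at 5.41, 5.70, 5.85, 5.53 and 5.53, lay between and overlapped with each of the other groups. The 18 °C mean of 5.27 ± 0.24 (SD, n = 5) was lower than the 23 °C mean of 5.86 ± 0.18 by a log2 difference of -0.59 ± 0.14 (SE; limma adjusted p = 0.282). Against 30 °C the difference was -0.71 ± 0.14 (limma adjusted p = 0.143), and the F-test over the 4 groups gave a limma adjusted p of 0.228. After adjustment for each array's background level, the differences from 23 °C and from 30 °C were -0.46 and -0.62. Leaving out any single array kept the difference from 23 °C between -0.66 and -0.51.

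Sirt1, an NAD-dependent deacetylase with known roles in hepatic glucose and lipid handling, was highest in the 23 °C offspring. Its values there were 8.51, 8.80, 8.88, 8.83 and 8.65. The 18 °C offspring read 8.34, 7.88, 7.83, 7.98 and 8.40, all below the lowest 23 °C array. The 30 °C offspring, at 7.77, 8.29, 8.24, 8.46 and 8.52, had 4 of 5 arrays below it, whereas the 10 °C values of 8.54, 8.48, 8.59, 8.75 and 8.20 overlapped with those of 23 °C. Both the cold and the warm side of 23 °C therefore had lower means, by -0.65 ± 0.16 at 18 °C and -0.48 ± 0.16 at 30 °C (SE; limma adjusted p = 0.286 and 0.978). At 10 °C the difference was -0.22. Adjusted for the background level, the 18 °C difference was -0.46.

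Kdm6b, a demethylase that removes the repressive methyl marks of histone H3 lysine 27, had the widest spread of the members at 18 °C, with an SD of 0.62. The 18 °C offspring read 6.98, 7.48, 7.63, 6.34 and 7.90, against 7.84, 7.90, 7.96, 8.10 and 8.24 at 23 °C. The values of 8.11, 8.37, 8.16, 7.83 and 7.92 at 30 °C and of 7.95, 8.49, 7.98, 7.69 and 7.78 at 10 °C were close to those at 23 °C. Animal 7 of the 18 °C group lay within the range of the other groups and animal 5 was far below it. The difference between 18 and 23 °C was -0.74 ± 0.22 (SE; limma adjusted p = 0.326), that between 18 and 30 °C -0.81 ± 0.22 (limma adjusted p = 0.352) and that between 10 and 18 °C 0.71 ± 0.22 (limma adjusted p = 0.448). Without animal 5 of the 18 °C group these were -0.51, -0.58 and 0.48. With all arrays and adjusted for the background level, they were -1.01, -1.02 and 0.72.

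**Figure D2:**
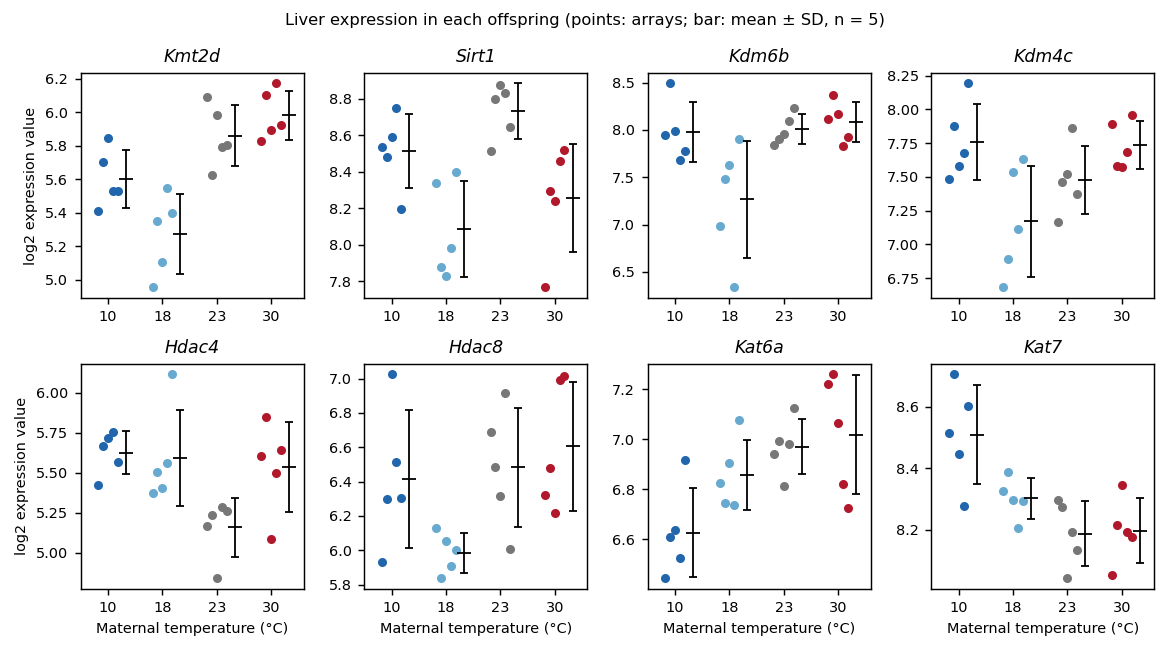
Liver expression (log2 value) of 8 enzyme genes against maternal temperature (°C); each point is 1 array and the bars are mean ± SD of 5 arrays. Kmt2d, Sirt1, Kdm6b, Kdm4c and Hdac8 have their lowest group mean at 18 °C, Hdac4 its lowest at 23 °C, Kat6a its lowest and Kat7 its highest at 10 °C.

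Of the DNA methyltransferases, the 2 with signal above background were close between groups. Dnmt1, which copies methylation to the new strand after replication, had group means of 5.25 ± 0.33 at 10 °C, 5.21 ± 0.32 at 18 °C, 5.09 ± 0.39 at 23 °C and 5.27 ± 0.17 at 30 °C (SD, n = 5). Dnmt3a, which methylates DNA that carried no mark, had means of 5.91 ± 0.20, 6.07 ± 0.49, 5.92 ± 0.28 and 5.98 ± 0.23 in the same order. No difference of either gene was larger than 0.18, and the limma adjusted F-test p of Dnmt1 was 0.939. Dnmt3b, the second enzyme for new methylation, and Dnmt3l, a partner without catalytic activity, were below the olfactory receptor bound, so that their differences (for Dnmt3b -0.43 ± 0.21 between 18 and 23 °C) were among signals at background.

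The 3 TET genes did not stand apart either. Tet2 had means of 7.25 ± 0.54 at 10 °C, 7.62 ± 0.25 at 18 °C, 7.74 ± 0.50 at 23 °C and 7.60 ± 0.72 at 30 °C, and its arrays ran from 6.49 to 8.51. The difference of -0.49 ± 0.30 between 10 and 23 °C (limma adjusted p = 0.547) was smaller than the SD within each of these groups. Tet3 had means of 7.88, 7.75, 7.91 and 7.77 in order of temperature. Tet1, with group means of 2.86 to 3.18, was at background.

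Among the methyltransferases of histone H3 lysines 27 and 9, the Ehmt2 gene had the largest differences from 23 °C. Ehmt2, which places mono- and dimethyl marks on lysine 9, read 7.84 to 8.34 at 10 °C, 7.53 to 8.22 at 18 °C, 7.48 to 7.96 at 23 °C and 7.95 to 8.27 at 30 °C. It was higher than at 23 °C by 0.35 ± 0.15 at 10 °C (SE; limma adjusted p = 0.364) and by 0.36 ± 0.15 at 30 °C (limma adjusted p = 0.978). Adjusted for the background level, the Ehmt2 differences were 0.27 and 0.34. Its partner Ehmt1 differed from 23 °C by 0.03, -0.04 and -0.15 at 10, 18 and 30 °C. The catalytic subunits of the Polycomb complex PRC2 went opposite ways at 18 °C, Ezh1 standing 0.23 above and Ezh2 0.32 below their 23 °C means of 9.02 ± 0.25 and 6.31 ± 0.27, without passing. Between 10 and 18 °C Ezh1 differed by -0.36, also without passing. Suv39h2, which trimethylates lysine 9, had group means from 4.84 to 5.09.

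Of the other 15 lysine methyltransferases, 10 had a lower mean at 18 than at 23 °C and 9 a lower mean at 18 than at 30 °C, with a median difference of -0.17 in both. Beside Kmt2d, the largest difference of a gene above background was that of Kmt5b, a methyltransferase of histone H4 lysine 20, at -0.35 against 23 °C and -0.42 ± 0.19 against 30 °C (limma adjusted p = 0.557). Kmt5a, which places the first methyl group on that lysine, had means of 11.73 ± 0.22 at 10 °C, 11.57 ± 0.15 at 18 °C, 11.41 ± 0.23 at 23 °C and 11.43 ± 0.23 at 30 °C, a slope of -0.16 ± 0.07 per 10 °C (limma adjusted p = 0.575). Setd6, whose known substrates include a subunit of NF-kB, was higher at 30 than at 23 °C by 0.34 ± 0.15 (limma adjusted p = 0.978). Setd7, the writer of a single methyl mark on H3 lysine 4, was not above the negative controls, with group means of 4.20 to 4.55. The slope of Kmt2d was 0.24 ± 0.09 per 10 °C (limma adjusted p = 0.4999), and 0.14 after adjustment for the background level. The other 11 of the class had no comparison at an unadjusted p under 0.05, and their differences from 23 °C ran from -0.37 (Setd1a) to 0.36 (Setd4), both at 18 °C and both of genes not above the negative controls.

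Among the 16 lysine demethylases, the Kdm4c and Kdm3b genes had the smallest p between 10 and 18 °C after Kdm6b, without passing. Kdm4c, a demethylase of H3 lysines 9 and 36, read 7.49, 7.87, 7.58, 7.68 and 8.19 at 10 °C and 6.68, 6.89, 7.54, 7.12 and 7.63 at 18 °C. It read 7.16, 7.46, 7.52, 7.86 and 7.37 at 23 °C and 7.89, 7.58, 7.57, 7.68 and 7.96 at 30 °C. The 18 °C values were the lowest as a group but overlapped with all others, the difference from 10 °C being 0.59 ± 0.18 in favour of 10 °C (limma adjusted p = 0.448) and that from 30 °C -0.57 ± 0.18 (limma adjusted p = 0.429). Kdm3b, a demethylase of H3 lysine 9, separated the cold groups without overlap, at 7.52 to 7.83 in the 10 °C and 7.09 to 7.48 in the 18 °C offspring, a difference of 0.39 ± 0.14 (limma adjusted p = 0.509). Its relative Kdm3a was higher at 10 than at 18 °C by 0.51 ± 0.23 (limma adjusted p = 0.602), with overlapping arrays. Kdm7a, which acts on H3 lysines 9 and 27, read 8.68 to 9.34 at 18 °C and 9.37 to 9.56 at 30 °C, again without overlap, a difference of -0.37 ± 0.14 (limma adjusted p = 0.504).

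The remaining demethylases named by the rule differed less. Kdm1a, a demethylase of H3 lysine 4 that works in co-repressor complexes, had means of 6.89 ± 0.26, 6.89 ± 0.34, 7.17 ± 0.27 and 7.27 ± 0.32 from 10 to 30 °C, a slope of 0.21 ± 0.09 per 10 °C (SE; limma adjusted p = 0.560). Adjusted for the background level, the Kdm1a slope was 0.17. Kdm4a, of the same family as Kdm4c, sloped the other way, by -0.18 ± 0.08 per 10 °C (limma adjusted p = 0.591), its 10 °C mean being 7.76 ± 0.37 and its 30 °C mean 7.41 ± 0.27. Without animal 8 of the 10 °C group this slope was -0.11. With all arrays and adjusted for the background level, it was -0.13. Kdm6a, the X-linked relative of Kdm6b, had means of 9.60 to 9.82 and none of the 18 °C difference of Kdm6b, at -0.02 against 23 °C. The difference between these relatives was not tested. Kdm8 read higher at 18 °C (3.54 to 4.34) than at 23 °C (3.19 to 3.45) without overlap, but its mean over the arrays, 3.56, was below the olfactory receptor bound. The 9 demethylases without any unadjusted p under 0.05, Kdm6a and Kdm8 among them, differed from 23 °C by -0.27 (Kdm2a at 30 °C) to 0.42 (Kdm8 at 18 °C).

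Histone deacetylases contributed the gene that stood lowest in the 23 °C group. Hdac4, a class IIa deacetylase that shuttles between nucleus and cytoplasm and takes part in the hepatic response to fasting hormones, read 5.17, 5.23, 4.84, 5.29 and 5.26 at 23 °C. It read 5.42, 5.67, 5.72, 5.75 and 5.57 at 10 °C, 5.38, 5.51, 5.40, 5.56 and 6.11 at 18 °C, and 5.60, 5.85, 5.08, 5.50 and 5.64 at 30 °C. Every array of the 10 and 18 °C groups, and 4 of 5 at 30 °C, exceeded the highest 23 °C array. The means exceeded that of 23 °C by 0.47 ± 0.16 at 10 °C (SE; limma adjusted p = 0.248), 0.43 ± 0.16 at 18 °C (0.433) and 0.38 ± 0.16 at 30 °C (0.978). These comparisons share the 23 °C arrays. Adjusted for the background level, the 10 °C and 30 °C differences were 0.39 and 0.36.

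Hdac8, a class I deacetylase of cohesin among other substrates, was low and tightly grouped at 18 °C. The 18 °C offspring read 6.13, 5.84, 6.05, 5.91 and 6.00, and the 30 °C offspring 6.32, 6.48, 6.22, 6.99 and 7.01, without overlap. The 10 °C and 23 °C groups ranged from 5.93 to 7.02 and from 6.01 to 6.91, wider than the 18 °C group. The difference between 18 and 30 °C was -0.62 ± 0.20 (limma adjusted p = 0.429) and that between 18 and 23 °C -0.50 ± 0.20 (limma adjusted p = 0.470). Hdac2, a class I deacetylase of the co-repressor complexes, showed the reverse, with 9.34 to 9.84 at 18 °C against 8.96 to 9.33 at 23 °C, a difference of 0.41 ± 0.15 (limma adjusted p = 0.423). Adjusted for the background level, this Hdac2 difference was 0.52. Its close relative Hdac1 differed from 23 °C by no more than 0.10 at any temperature.

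Hdac3, the deacetylase of the NCoR complexes and a regulator of hepatic lipid synthesis, had means of 10.83 ± 0.27, 10.93 ± 0.13, 10.84 ± 0.28 and 10.98 ± 0.15 from 10 to 30 °C (SD, n = 5), with a limma adjusted F-test p of 0.923. Hdac11, the class IV deacetylase, was higher at 10 °C (8.25 ± 0.17) than at 18 °C (7.75 ± 0.46) by 0.50 ± 0.18 (SE; limma adjusted p = 0.509). This difference leaned on animal 5 of the 18 °C group, without which it was 0.31. Hdac7 was not above the negative controls. Hdac1, Hdac3, Hdac6, Hdac9 and Hdac10 had no unadjusted p under 0.05, with differences from 23 °C between -0.26 (Hdac9 at 18 °C) and 0.19 (Hdac6 at 30 °C).

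The measured sirtuins other than Sirt1 were close between groups. Sirt3, the mitochondrial deacetylase, had means of 11.79 ± 0.24 at 10 °C and 11.60 to 11.62 in the other groups. Sirt2, a largely cytoplasmic deacetylase, was 0.16 to 0.24 below its 23 °C mean of 12.03 ± 0.18 at the other temperatures, and Sirt5, the mitochondrial desuccinylase, 0.14 to 0.28 below its 23 °C mean of 6.77 ± 0.12, none at an unadjusted p under 0.05. Sirt4 ran from 5.05 to 5.19 in its group means, and Sirt6, not above the negative controls, from 4.48 to 4.79.

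The lysine acetyltransferases held a pair of genes with slopes of opposite sign. Kat6a, an acetyltransferase of the MOZ family, read 6.44, 6.61, 6.64, 6.52 and 6.92 at 10 °C, against 6.94, 6.99, 6.81, 6.98 and 7.12 at 23 °C. At 18 °C it read 6.83, 6.75, 6.90, 6.74 and 7.08, and at 30 °C 7.22, 7.26, 7.06, 6.82 and 6.73. Only animal 8 of the 10 °C group reached into the 23 °C range. The difference between 10 and 23 °C was -0.34 ± 0.13 (SE; limma adjusted p = 0.311), that between 10 and 30 °C -0.39 ± 0.13 (limma adjusted p = 0.672), and the slope 0.20 ± 0.06 per 10 °C (limma adjusted p = 0.464).

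Kat7, which acetylates histone H3 lysine 14 and histone H4, sloped downwards with temperature. It read 8.51, 8.71, 8.45, 8.28 and 8.60 at 10 °C and 8.33, 8.39, 8.30, 8.20 and 8.29 at 18 °C. The values were 8.30, 8.28, 8.04, 8.19 and 8.13 at 23 °C and 8.05, 8.21, 8.35, 8.19 and 8.18 at 30 °C. In the 10 °C group, 4 of 5 arrays lay above all 15 others. The 10 °C mean exceeded that of 23 °C by 0.32 ± 0.11 (limma adjusted p = 0.271) and that of 30 °C by 0.31 ± 0.11 (limma adjusted p = 0.677), and the slope was -0.16 ± 0.05 per 10 °C (limma adjusted p = 0.470). Kat5, the catalytic subunit of the TIP60 complex, was lower at 18 °C than at 30 °C by -0.48 ± 0.16 (limma adjusted p = 0.438), with 7.73 to 8.53 against 8.31 to 8.93. Kat2a and Kat2b, the acetyltransferases of the SAGA and ATAC complexes, and Kat8, which acetylates histone H4 lysine 16, had no unadjusted p under 0.05, and neither had Kat6b, the relative of Kat6a. Their differences from 23 °C ran from -0.25 (Kat6b at 18 °C) to 0.21 (Kat2b at 30 °C).

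**Figure D3:**
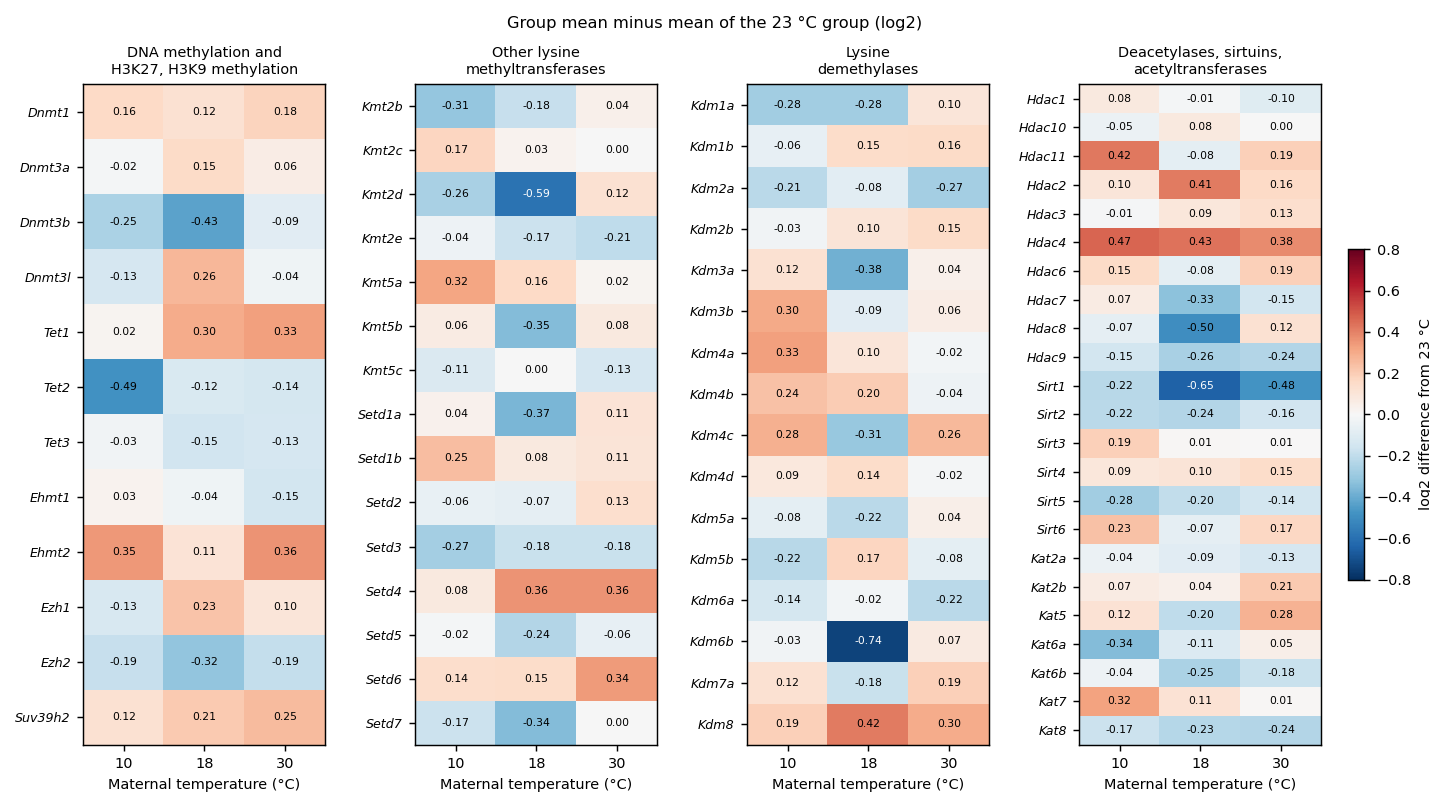
Group mean minus the mean of the 23 °C group (log2 difference) for all 66 enzyme genes at maternal temperatures of 10, 18 and 30 °C, in panels by enzyme class; blue is lower and red higher than at 23 °C. The most negative cells are those of Kdm6b (-0.74), Sirt1 (-0.65) and Kmt2d (-0.59) at 18 °C and the most positive is Hdac4 (0.47) at 10 °C; no cell passed the adjusted threshold.

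Across the members, the 18 °C offspring had the lowest of the 4 group means for 25 of 66 genes (37.9%), against 25.6% of all clusters, and the 30 °C offspring the highest for 23 (34.8%), against 20.7%. These shares were not taken over the brighter clusters alone, those with a mean above 3.90. Between 18 and 23 °C, 39 members were lower and 27 higher, where 49.6% of all clusters were higher. The median was -0.08 (all clusters 0.00, brighter clusters -0.02). Between 18 and 30 °C 40 were lower (50.6% of all clusters higher), with a median of -0.05 (all clusters 0.00, brighter clusters -0.02). Between 10 and 18 °C 41 were higher (50.1% of all clusters), with a median of 0.06 (all clusters 0.00, brighter clusters 0.02). The 124 partner genes described below had medians of -0.04, -0.07 and 0.05 in these 3 comparisons. The members' medians are small beside their median SD within groups of 0.29, and the 3 comparisons share the 18 °C arrays. Between 10 and 23 °C, 32 members were higher (50.4% of all clusters) and 34 lower, and the median was -0.01.

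At an unadjusted p under 0.05, which is no call, the members' shares were near those of all clusters in most comparisons. Between 10 and 23 °C 7 members (10.6%) reached it, against 11.6% of all clusters. Between 18 and 23 °C 6 did (9.09%, against 9.25%), and between 30 and 23 °C 4 did (6.06%, against 4.84%). None of these shares from the 23 °C comparisons stood far from the background. Between 10 and 30 °C 3 did (4.55%, against 6.76%), and between 18 and 30 °C 7 did (10.6%, against 8.21%). Between 10 and 18 °C the count was 13 (19.7%, against 8.10%), the widest gap, with Kdm6b, Kdm4c, Kdm3b, Kdm3a, Kdm7a, Kmt2d, Kmt5b, Hdac11, Hdac8, Hdac7 and Sirt1 higher at 10 °C in these 13 and Hdac2 and Dnmt3l lower. The F-test gave 9 members (13.6%, against 9.86%) and the slope 6 (9.09%, against 8.15%). Among the 12464 brighter clusters, the share between 10 and 18 °C was 9.86%, and 12 of 60 members above 3.90 reached an unadjusted p under 0.05. Of the 13, Dnmt3l was below 3.90, and Hdac7, still among the 12, was not above the negative controls.

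**Figure D4:**
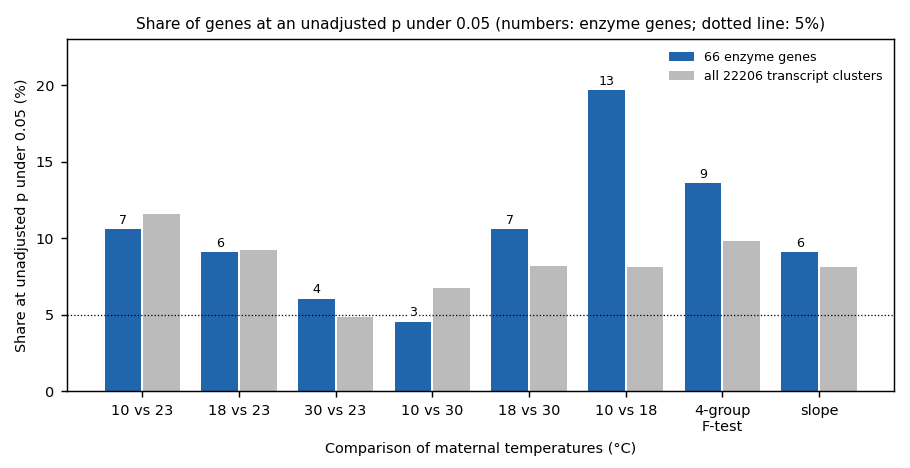
Share of genes (%) with an unadjusted limma p under 0.05 in each pairwise comparison of maternal temperatures (°C), the 4-group F-test and the slope, for the 66 enzyme genes (blue, with their number above the bar) and all 22206 transcript clusters (grey). The members' share stands furthest above that of all clusters between 10 and 18 °C, at 19.7% against 8.10%.

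In each pairwise comparison, at most 5 of the 66 members had groups whose 5 and 5 arrays did not overlap. Between 10 and 23 °C this held for 1 member (Hdac4), where 2.45% of all clusters showed it. Between 18 and 23 °C it held for 5 of 66 members, a larger share than the 1.81% of clusters. Hdac4, Kdm8 and Hdac2 were higher and Sirt1 and Kmt2d lower at 18 °C, Kdm8 having a mean below the olfactory receptor bound. Between 18 and 30 °C Kdm7a, Hdac8 and Kmt2d were lower without overlap, 3 of 66 and also a larger share than that of clusters (1.41%). Both comparisons share the 18 °C arrays. Between 10 and 18 °C only Kdm3b met it (1.42%), and between 30 and 23 °C (0.752%) and between 10 and 30 °C (0.982%) no member did, while 4 and 3 members there had an unadjusted limma p under 0.05.

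The genes that work with these enzymes gave 0 calls in limma as well. Of 124 partner genes measured in 11 lists, the share with an unadjusted p under 0.05 was below that of all clusters in 5 of the 6 pairwise comparisons. Between 10 and 23 °C it was 7 genes (5.65%, against 11.6% of all clusters), between 18 and 23 °C 8 (6.45%, against 9.25%) and between 30 and 23 °C 4 (3.23%, against 4.84%). Between 10 and 30 °C it was 5 (4.03%, against 6.76%) and between 10 and 18 °C 9 (7.26%, against 8.10%). The exception was the comparison of 18 with 30 °C, with 16 (12.9%, against 8.21%) and a median partner difference of -0.07.

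In each partner list the gene of smallest F-test p is given, with its largest pairwise difference. For 5 of these 11 genes that was the comparison of 18 with 30 °C. Msl1, a scaffold of the Kat8 complex, was lower at 18 °C by -0.49 ± 0.13 (SE; limma adjusted p = 0.365), and Suz12, a core subunit of PRC2, by -0.34 ± 0.13 (limma adjusted p = 0.505). The acetyltransferase gene Crebbp differed by -0.34 ± 0.12 (limma adjusted p = 0.451) and Uty, the Y-linked relative of Kdm6a, by -0.38 ± 0.15 (limma adjusted p = 0.534). Bhmt, which regenerates methionine for the methyl donor, was higher at 18 °C by 0.55 ± 0.16 (limma adjusted p = 0.380).

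The other 6 were furthest apart elsewhere. Tbl1xr1, a subunit of the Hdac3 co-repressor complexes, was higher at 30 than at 23 °C by 0.54 ± 0.17 (limma adjusted p = 0.978), and Brd2, a reader of acetylated histones, was lower at 18 than at 23 °C by -0.50 ± 0.20 (limma adjusted p = 0.470). Between 10 and 18 °C, Paxip1, a partner of Kmt2d in its complex, differed by 0.48 ± 0.17 (limma adjusted p = 0.501) and Mbd1, which binds methylated CG pairs, by -0.96 ± 0.35 (limma adjusted p = 0.509). Between 10 and 30 °C, Prdm2, a histone H3 lysine 9 methyltransferase, differed by -0.77 ± 0.23 (limma adjusted p = 0.662) and Prmt7, an arginine methyltransferase, by 0.37 ± 0.16 (limma adjusted p = 0.719).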

How the data were processed

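Liver RNA of 20 mice was hybridised to Affymetrix arrays after column extraction and biotin labelling, per the labels' protocols. The authors' deposited values are log2 expression values, made with RMA and the Transcriptome Analysis Console per the submitters' processing notes; versions, settings and genome build are not given in the sources used here. RMA forces all arrays to one distribution, which would hide a shift common to all genes, and it shrinks the differences of dim ones. Precision is limited by having 5 arrays a group. Of 28846 rows, 6640 were control rows; of 22206 transcript clusters, 19572 carried 1 gene symbol, 0 several and 2634 none.

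A linear model with a mean for each group was fitted to every cluster over the 20 arrays, using lmFit and eBayes of limma 3.58.1 (R 4.3.3). It gave 6 pairwise comparisons, a moderated F-test and, from a second fit, a slope per 10 °C. Tests are two-sided, and adjustment was by Benjamini-Hochberg over all clusters with a threshold of 0.05. The fit was tested on simulated data. Named were called members, otherwise the 4 members of smallest p per pair and 6 in the F-test and slope, the brightest and dimmest gene of each class, genes fixed by name, and 1 gene per partner list; members named for lack of overlap or beside a relative were chosen after their values were seen. The members, lists and rules were chosen with earlier results of these data known. Animal numbers recur between groups but did not pair the samples: over 11 pairs of like number, correlations of deviations from group means ran from -0.151 to 0.111, with 1 above 0.1. A total of 10 other settings were tried, and leaving out each array.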

Additional observations from a re-analysis of the deposited data

Results flagged for a closer look

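In 9 of 168 groups of 5 arrays of the 42 named enzyme genes (5.36%), the highest or lowest array lay further from its neighbour than 0.71 of the group's whole range, Dixon's bound, which chance passes in about 5%. The 23 °C group held 4 of these. In it, Dnmt3b read 3.38 in animal 2 against 4.04 to 4.25 in the others, Kdm1a 7.63 in animal 1 against 6.95 to 7.14, Kat5 8.20 in animal 1 against 8.45 to 8.53, and Hdac4 4.84 in animal 15 against 5.17 to 5.29. In the 18 °C group, Kdm1a read 6.30 in animal 1 against 6.94 to 7.15, Kdm4d 3.22 in animal 4 against 2.51 to 2.69, and Hdac4 6.11 in animal 7 against 5.38 to 5.56. In the 30 °C group, Suv39h2 read 5.57 in animal 4 against 4.88 to 5.03, and Kmt5a 11.02 in animal 7 against 11.47 to 11.63. Dnmt3b and Kdm4d were at background.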

How the results depend on the processing

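No member passed an adjusted p of 0.05 in limma under any of the 10 other settings or the 20 fits without 1 array, and the smallest adjusted p was 0.072, for Kmt2d between 18 and 30 °C with dim clusters left out. For the 30 differences of named genes set out by the rule, the sign was kept in all 894 other values, and over all 294 differences of named genes it turned in 353 of 8750. The 30 were picked for a small p in these same data. Many of the other values also equal the first by design, where only the variance, the adjustment or an uncompared group changed. The kept sign is therefore no separate support. Counts at an unadjusted p under 0.05 moved more. Without 1 array they ran from 4 to 8 between 10 and 23 °C (4 without 23 °C animal 1 or 17), 1 to 5 between 30 and 23 °C (1 without 23 °C animal 15, 2 without 30 °C animal 5 or 8), 3 to 7 between 10 and 30 °C (7 without 30 °C animal 4, 5 without 30 °C animal 6 or 10 °C animal 2 or 5), 6 to 8 between 18 and 23 °C, 5 to 10 between 18 and 30 °C, 9 to 14 between 10 and 18 °C, 7 to 12 in the F-test and 4 to 8 for the slope. Adjusted for the background level, 3 members had such a p between 10 and 23 °C, where the count of all clusters went from 2584 to 1242, and 11 between 18 and 30 °C, where it went from 1823 to 1935, and a fit of only the 2 groups compared gave 10 between 18 and 23 °C. A fit with the fixed replicate block gave 3, 3 and 1 members for 10, 18 and 30 °C against 23 °C. It gave 0 and 5 for 10 and 18 °C against 30 °C, and 6 for 10 with 18 °C. The F-test had 5 and the slope 1. Of the 45 values that moved by over 1 SD within groups, 41 were under that block. The Hdac4 difference between 30 and 23 °C went from 0.38 to 0.06, and that of Kmt2d between 18 and 23 °C from -0.59 to -0.93. Animals whose number occurs in only 1 group, 15, 17 and 23 of the 23 °C group among them, add nothing to these differences. The numbers did not pair the samples in the check above, so this fit cannot decide whether a difference is weaker. A random replicate block gave a correlation of -0.031 and left 13 members between 10 and 18 °C. No symbol had several rows, so the alternative of another row per gene gave no value.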
